A study of Mus musculus with 6 samples.

Results

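The 9 genes described here encode the 3 TGF beta ligands (Tgfb1, Tgfb2, Tgfb3), their 3 cell-surface receptors (Tgfbr1, Tgfbr2, Tgfbr3), the inhibitory SMAD that feeds back on them (Smad7) and 2 genes that the pathway induces (Ccn2, Tgfbi). They were taken by name from a table of 55487 mouse gene IDs. All 9 passed the filter on low counts that kept 15666 genes. The table came from RNA sequencing of 6 whole tongue grafts of B16F10, an established pigmented melanoma cell line of C57BL/6J mice. The 3 inhibition grafts grew in mice in which the nociceptive, or pain-sensing, nerves reaching the cervical lymph nodes were inhibited, and the 3 control grafts in mice whose labels read vehicle-treated. All hosts were immune-competent C57BL/6J mice labelled WT, and all had a viral vector injected into the cervical nodes 6 weeks before the cells were placed under the tongue lining. The vectors were AAV2/retro-Trpv1-hM4D(Gi)-mCherry, whose engineered inhibitory receptor hM4D(Gi) responds to deschloroclozapine, and AAV2/retro-Trpv1-mCherry, with the fluorescent protein only. The dosing of deschloroclozapine (2 times per day over 12 days) was not limited to 1 group in the design text, so whether the controls received it or a vehicle was unclear. Non-tumour tissue was trimmed off before RNA was taken from the whole graft. Neither vector gene was counted in the table, and 1 cell line was used. Age, sex and pooling of mice were not stated, nor whether each graft had its own mouse. Every p-value therefore measures only the spread between these samples.

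TGF beta is made as a precursor that is cut by a protease and stored in the matrix in a latent form, from which integrins, thrombospondin and proteases release it. Active ligand binds the type II receptor Tgfbr2, which phosphorylates the type I receptor Tgfbr1, and Tgfbr1 phosphorylates Smad2 and Smad3, which enter the nucleus with Smad4. In skin and tumour stroma the pathway is known for driving matrix production by fibroblasts, and Ccn2, a matricellular protein also called connective tissue growth factor, is one of its best known targets.

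The 3 ligands are paralogs, so their sequences bear on whether reads of one could be counted for another. The ends of their coding sequences, the most conserved part of the precursor, are shown without the stop codon, 5′ to 3′ on the coding strand, from the GENCODE M21 transcripts on GRCm38. Capitals mark the 78 of 120 bases that are identical in all 3.
Tgfb1: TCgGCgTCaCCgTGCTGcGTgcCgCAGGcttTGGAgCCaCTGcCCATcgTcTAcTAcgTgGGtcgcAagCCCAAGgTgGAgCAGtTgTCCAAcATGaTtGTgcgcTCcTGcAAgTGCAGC
Tgfb2: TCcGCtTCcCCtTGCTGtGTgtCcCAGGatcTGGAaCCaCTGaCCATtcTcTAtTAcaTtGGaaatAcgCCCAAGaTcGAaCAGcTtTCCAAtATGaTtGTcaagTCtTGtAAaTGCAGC
Tgfb3: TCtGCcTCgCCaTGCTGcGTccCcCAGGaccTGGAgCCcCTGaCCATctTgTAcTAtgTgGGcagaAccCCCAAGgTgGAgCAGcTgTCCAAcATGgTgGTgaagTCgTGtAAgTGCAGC
These stretches lie at chr7:25704820-25704939 (plus strand), chr1:186625451-186625570 (minus strand) and chr12:86057783-86057902 (minus strand). Over the last 336 coding bases, which encode the mature ligand, 73.5% of bases were identical between Tgfb1 and Tgfb3, 70.8% between Tgfb2 and Tgfb3, and 68.8% between Tgfb1 and Tgfb2. Along the longest coding transcripts, untranslated ends included (2175 bases for Tgfb1, 5116 for Tgfb2 and 3383 for Tgfb3), the longest run that any pair shared was 15 bases. Other transcripts of these genes were not compared.

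Promoter sequence was read as well, and 5 of the 9 genes (Tgfb1, Tgfb2, Tgfbr1, Tgfbr2 and Tgfbi) had an entry in the RefSeq promoter table on GRCm38.p6. The 250 bases before RefSeq's start are shown for the ligand gene of the highest count, for the one of the lowest count and for the induced gene Tgfbi. Capitals mark the motifs TATAAA (the TATA box core), CGTCA (part of the cyclic AMP response element) and CAGAC (the SMAD box core), each searched on both strands.
Tgfb1: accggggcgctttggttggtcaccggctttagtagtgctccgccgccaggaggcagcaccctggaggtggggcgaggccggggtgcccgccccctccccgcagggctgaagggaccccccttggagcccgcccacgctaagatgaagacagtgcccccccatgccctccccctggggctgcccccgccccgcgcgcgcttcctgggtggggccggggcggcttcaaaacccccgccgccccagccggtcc
Tgfb2: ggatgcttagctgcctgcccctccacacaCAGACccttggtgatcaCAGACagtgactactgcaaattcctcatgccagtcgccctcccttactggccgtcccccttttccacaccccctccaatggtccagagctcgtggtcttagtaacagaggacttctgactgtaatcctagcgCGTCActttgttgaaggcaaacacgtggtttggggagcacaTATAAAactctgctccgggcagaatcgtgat
Tgfbi: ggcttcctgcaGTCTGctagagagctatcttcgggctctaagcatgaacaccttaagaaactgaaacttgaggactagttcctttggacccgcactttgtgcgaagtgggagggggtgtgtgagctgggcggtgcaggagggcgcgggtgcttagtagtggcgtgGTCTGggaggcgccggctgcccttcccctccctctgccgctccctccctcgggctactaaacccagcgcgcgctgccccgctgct
They lie at chr7:25686752-25687001 (plus strand), chr1:186705990-186706239 (minus strand) and chr13:56609336-56609585 (plus strand). RefSeq starts Tgfbi downstream of the GENCODE start given further on, so the last 63 bases of its window lie inside the GENCODE gene. The Tgfb1 window was 75.2% G and C and held none of the 3 motifs, whereas the Tgfb2 window was 53.6% G and C and held 1 TATAAA, 1 CGTCA and 2 CAGAC. Its TATAAA began 31 bases before the start. The Tgfbi window held 2 CAGAC, both on the minus strand and printed as GTCTG. Of 32851 promoters of the same length, 12.4% held TATAAA, 17.8% CGTCA and 42.2% CAGAC, so the matches describe these windows and name no site.

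Library totals ran from 14477277 to 20972494 counts in the inhibition grafts and from 15420091 to 20914180 in the control grafts, and the 9 genes held between 134 and 1551 counts per library. The pigment cell markers that define the line were abundant: 10 of 10 were tested and together held 30626 to 35746 CPM (counts scaled to library size with TMM factors) in inhibition grafts and 23696 to 31563 CPM in control grafts, overlapping between the groups. Whole grafts hold host tissue as well, and in such bulk RNA fewer cells of a type and less RNA per cell cannot be told apart.

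The 2 genes set furthest apart between the groups were the target Ccn2 and the ligand Tgfb3, each with a mean 1.53-fold that of the control grafts. Tgfbi followed at 1.35-fold, and the other 6 genes ran from 0.911-fold for Tgfbr1 to 1.24-fold for Tgfbr3. No member (0 of 9) passed edgeR's quasi-likelihood test at a Benjamini-Hochberg adjusted p under 0.05, the rule by which 0.0383% of all genes tested were called (6 genes, 0.0319% called higher and 0.00638% called lower). With the unadjusted p under 0.05, 2 members (Ccn2 and Tgfb3) were on the higher side and 0 on the lower, against 8.36% and 7% of all genes (15.4% in either direction). The log2 fold change was positive in 7 of 9 members and in 51% of all genes, with medians of 0.16 and 0.0049. DESeq2 called 2 members, Ccn2 and Tgfb3, among the 2.23% of all genes that it called higher, and 0 among the 1.23% that it called lower. The groups did not overlap in 2 members on the higher side (10.2% of all genes) and in 1 on the lower side (11% of all genes), 3 in all (21.3% of all genes).

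**Figure D1:**
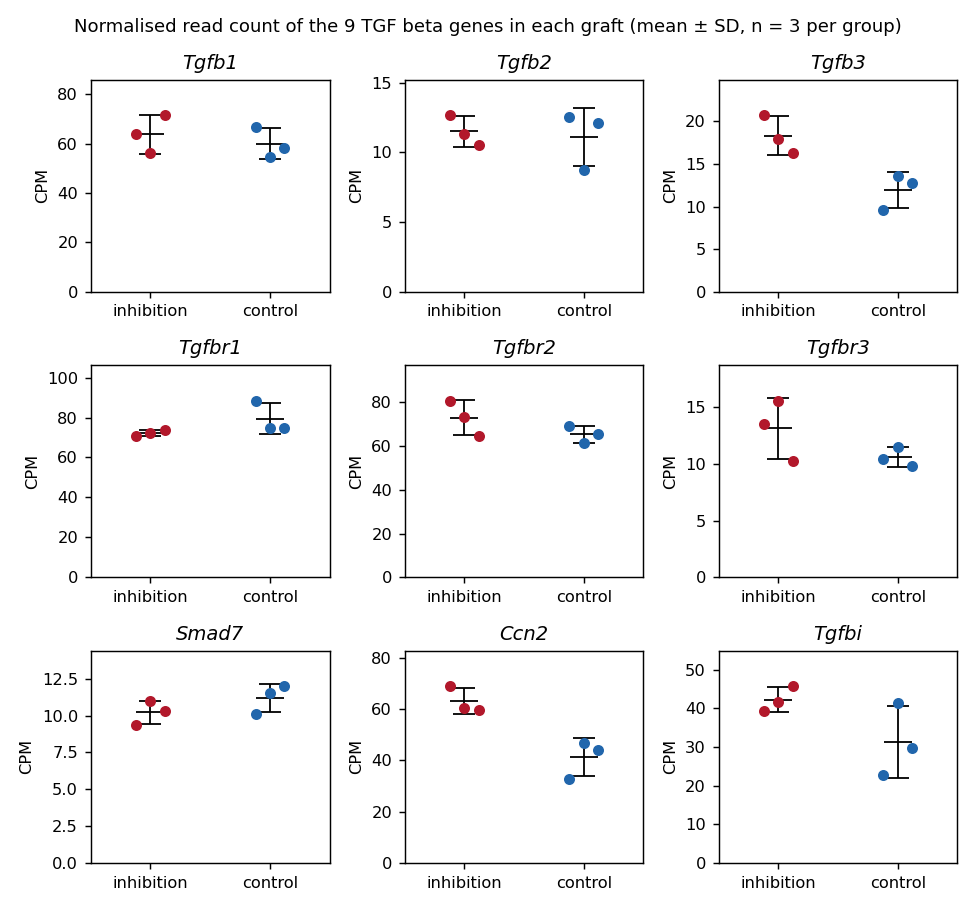
Normalised read count (CPM, vertical axes from 0) of each of the 9 genes in the 3 inhibition grafts (red, left) and the 3 control grafts (blue, right), with points for single grafts and bars for the mean ± SD. The inhibition points of Tgfb3 and Ccn2 all lie above the control points, while those of Tgfb1, Tgfb2, Tgfbr2, Tgfbr3, Smad7 and Tgfbi overlap with them.

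Among the ligands, Tgfb3 had the highest fold change. Tgfb3 (ENSMUSG00000021253), a ligand known from palate fusion and scar-poor healing, lies on the minus strand of chromosome 12 from 86056745 to 86079041 on GRCm38. It held 20.7, 18.0 and 16.2 CPM in inhibition grafts 1, 2 and 3, against 9.59, 13.5 and 12.7 CPM in control grafts 1, 2 and 3. The lowest inhibition graft lay above the highest control graft, and control graft 1 was the lowest of all. The means were 18.3 ± 2.27 CPM in inhibition and 12.0 ± 2.08 CPM in control grafts (SD, n = 3 each), a log2 fold change of 0.61 with a standard error of 0.16 and an edgeR adjusted p of 0.181. Without control graft 1 the log2 fold change was 0.47 (edgeR adjusted p = 0.338), and without inhibition graft 1 it was 0.51 (0.538).

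Tgfb1 (ENSMUSG00000002603, plus strand of chromosome 7, 25687002 to 25705077), the ligand of platelets, immune cells and most tumours, had the highest count of the 3. It held 63.8, 56.0 and 71.6 CPM in the inhibition grafts, against 66.9, 54.8 and 58.1 CPM in the control grafts. The groups overlapped, with means of 63.8 ± 7.78 CPM in inhibition and 59.9 ± 6.28 CPM in control grafts (SD, n = 3 each), and the log2 fold change was 0.09 with a standard error of 0.11 (edgeR adjusted p = 0.720). Tgfb2 (ENSMUSG00000039239, minus strand of chromosome 1, 186622792 to 186705989), a ligand with a low affinity for Tgfbr2 unless Tgfbr3 presents it, held 12.7, 11.3 and 10.5 CPM in the inhibition grafts and 12.6, 8.72 and 12.1 CPM in the control grafts. These groups overlapped as well, with a log2 fold change of 0.045 and a standard error of 0.17 (edgeR adjusted p = 0.918).

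To compare the ligands with each other, counts were divided by length and given as a share of the 3 ligands in each graft. Per length of merged exons, Tgfb1 made up 63.0% ± 4.51 of the ligand counts in inhibition grafts and 68.4% ± 3.63 in control grafts, Tgfb2 9.94% ± 1.05 in inhibition grafts and 11.03% ± 1.59 in control grafts, and Tgfb3 27.1% ± 3.47 in inhibition grafts and 20.5% ± 4.56 in control grafts (SD, n = 3 each). The Tgfb3 share was 29.2%, 28.9% and 23.1% in the inhibition grafts and 15.5%, 24.4% and 21.7% in the control grafts, so that inhibition graft 3 lay below control graft 2. The merged exons of Tgfb1 (5042 bases) are far longer than its longest coding transcript (2175 bases). Per length of the longest coding transcript, the Tgfb1 share was 79.1% ± 3.12 in inhibition grafts and 82.7% ± 2.25 in control grafts, and the Tgfb3 share 14.7% ± 2.31 in inhibition grafts and 10.8% ± 2.61 in control grafts. With either length Tgfb1 was the main ligand transcript and Tgfb3 the next. The log2 ratio of Tgfb3 to Tgfb1 within a graft, which no scaling between libraries can move, was -1.80 ± 0.29 in inhibition grafts and -2.34 ± 0.41 in control grafts (SD, n = 3 each; exact permutation p = 0.20, two-sided, adjusted p = 0.40 over 6 ratios; higher in 2 of 3 inhibition grafts than in any control graft). With 3 grafts against 3 this test cannot give less than 0.10.

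**Figure D2:**
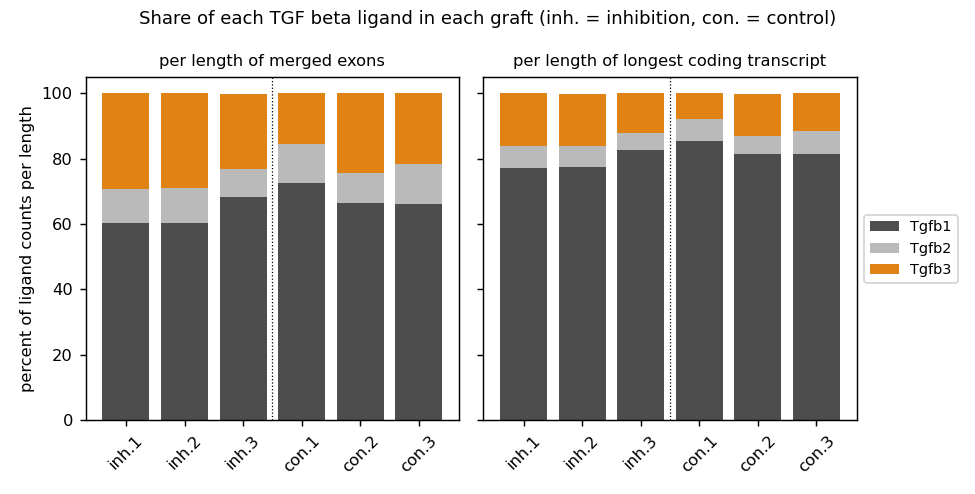
Share of Tgfb1, Tgfb2 and Tgfb3 (percent of the summed ligand counts per length, vertical axis) in each of the 3 inhibition grafts and 3 control grafts, per length of merged exons (left) and of the longest coding transcript (right). Tgfb1 is the largest part of every bar, and the Tgfb3 part runs from 23.1% to 29.2% in inhibition grafts and from 15.5% to 24.4% in control grafts on the left.

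The receptors had log2 fold changes nearer to 0 than Tgfb3. Tgfbr1 (ENSMUSG00000007613, plus strand of chromosome 4, 47353222 to 47414931), the type I receptor kinase, held 70.8, 72.2 and 73.9 CPM in the inhibition grafts, against 88.5, 74.8 and 75.02 CPM in the control grafts. All inhibition values lay below all control values, but inhibition graft 3 and control graft 2 were less than 1 CPM apart. The log2 fold change was -0.13 with a standard error of 0.084 (edgeR adjusted p = 0.461), and without control graft 1 it was -0.058 (edgeR adjusted p = 0.846). Tgfbr2 (ENSMUSG00000032440, minus strand of chromosome 9, 116084293 to 116175360), the type II receptor that binds ligand first, held 80.8, 73.4 and 64.8 CPM in the inhibition grafts and 69.3, 61.3 and 65.5 CPM in the control grafts. Its groups overlapped, and its log2 fold change was 0.16 with a standard error of 0.095 (edgeR adjusted p = 0.444). It was 0.071 without inhibition graft 1 and 0.098 without control graft 2.

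Because Tgfbr2 and Tgfbr1 work as 1 complex, their ratio was also taken within each graft. The log2 ratio of Tgfbr2 to Tgfbr1 counts was 0.19, 0.02 and -0.19 in the inhibition grafts and -0.35, -0.29 and -0.20 in the control grafts. Every inhibition value lay above every control value, though inhibition graft 3 and control graft 3 were nearly level. The means were 0.0078 ± 0.19 in inhibition grafts and -0.28 ± 0.08 in control grafts (SD, n = 3 each), a difference of 0.29 (exact permutation p = 0.10, two-sided, adjusted p = 0.30 over 6 ratios). Tgfbr3 (ENSMUSG00000029287, minus strand of chromosome 5, 107106570 to 107289629), or betaglycan, the co-receptor that presents Tgfb2, held 13.5, 15.6 and 10.3 CPM in the inhibition grafts and 10.4, 11.5 and 9.82 CPM in the control grafts. Inhibition graft 3 lay among the controls, and the log2 fold change was 0.31 with a standard error of 0.17 (edgeR adjusted p = 0.421). It was 0.16 without inhibition graft 2 and 0.45 without inhibition graft 3 (edgeR adjusted p = 0.767 and 0.213). The log2 ratios of Tgfb2 to Tgfb1 and of Tgfbr3 to Tgfbr2 differed by -0.024 and 0.14 between the groups (exact permutation p = 0.80 and 0.50).

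Ccn2 and Smad7, both known as genes that SMAD signalling induces, stood on different sides of the control mean. Ccn2 (ENSMUSG00000019997, plus strand of chromosome 10, 24595442 to 24598683) held 68.9, 60.5 and 59.8 CPM in the inhibition grafts, against 32.7, 46.7 and 44.2 CPM in the control grafts. All inhibition grafts lay above all control grafts, and control graft 1 was again the lowest. The means were 63.1 ± 5.10 CPM in inhibition and 41.2 ± 7.44 CPM in control grafts (SD, n = 3 each), a log2 fold change of 0.61 with a standard error of 0.13 (edgeR adjusted p = 0.162; DESeq2 adjusted p = 0.00311). Leaving out any single graft gave log2 fold changes from 0.47 to 0.69. Exons of the gene Gm15270 on the opposite strand cover 23.2% of the Ccn2 exon bases and held 4 to 14 counts per library. Since the strand setting of the counting was not given, reads of the pair cannot be told apart there.

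Smad7 (ENSMUSG00000025880, plus strand of chromosome 18, 75367529 to 75395935), which blocks the type I receptor, held 9.39, 10.97 and 10.3 CPM in the inhibition grafts and 10.1, 11.5 and 12.0 CPM in the control grafts. The groups overlapped, with a log2 fold change of -0.13 and a standard error of 0.14 (edgeR adjusted p = 0.687). The log2 ratio of Ccn2 to Smad7 within a graft was 2.88, 2.46 and 2.53 in the inhibition grafts and 1.69, 2.02 and 1.88 in the control grafts. The lowest inhibition ratio lay above the highest control ratio, with means of 2.62 ± 0.22 in inhibition grafts and 1.86 ± 0.16 in control grafts (SD, n = 3 each), a difference of 0.76 (exact permutation p = 0.10, two-sided, adjusted p = 0.30 over 6 ratios).

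Tgfbi (ENSMUSG00000035493, plus strand of chromosome 13, 56609523 to 56639562), a secreted matrix protein named for its induction by TGF beta, held 39.2, 41.6 and 45.7 CPM in the inhibition grafts and 22.7, 41.3 and 29.8 CPM in the control grafts. Control graft 2 reached the level of the inhibition grafts, so the groups overlapped. The means were 42.2 ± 3.27 CPM in inhibition and 31.3 ± 9.36 CPM in control grafts (SD, n = 3 each), a log2 fold change of 0.44 with a standard error of 0.20 (edgeR adjusted p = 0.349). It was 0.67 without control graft 2 and 0.25 without control graft 1 (edgeR adjusted p = 0.0903 and 0.596). The log2 ratio of Tgfbi to Ccn2 differed by -0.16 between the groups (exact permutation p = 0.50).

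Per length of merged exons, Ccn2 had the highest level of the 9 genes, at 22.05 ± 1.78 CPM per kilobase in inhibition grafts and 14.4 ± 2.60 in control grafts (SD, n = 3 each). Tgfb1 (12.7 ± 1.54 in inhibition and 11.9 ± 1.24 in control grafts), Tgfbr1 (11.1 ± 0.235 in inhibition and 12.15 ± 1.1998 in control grafts) and Tgfbi (11.2 ± 0.866 in inhibition and 8.29 ± 2.48 in control grafts) came next and did not differ from each other beyond their spread in the inhibition grafts. Tgfbr2 (8.92 ± 0.977 in inhibition and 7.98 ± 0.488 in control grafts) and Tgfb3 (5.42 ± 0.670 in inhibition and 3.53 ± 0.615 in control grafts) followed. Smad7 (2.26 ± 0.176 in inhibition and 2.48 ± 0.214 in control grafts), Tgfb2 (1.99 ± 0.188 in inhibition and 1.92 ± 0.362 in control grafts) and Tgfbr3 (2.01 ± 0.407 in inhibition and 1.62 ± 0.131 in control grafts) were the lowest, the last pair within each other's spread. Per length of the longest coding transcript Tgfb1 came first, at 29.3 ± 3.58 in inhibition and 27.6 ± 2.89 CPM per kilobase in control grafts, and Ccn2 second, at 25.3 ± 2.05 in inhibition and 16.5 ± 2.99 in control grafts.

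Ccn2 and Tgfb3 had similar centred levels graft by graft. Likeness was measured as the root mean square difference of log2 CPM over the 6 grafts, each gene centred on its own mean. The difference between the groups is part of this measure. Genes with equal log2 fold changes, as Ccn2 and Tgfb3 (0.61 each), are therefore close by it in part because of that difference. For Ccn2 the most alike of all genes with at least 5 CPM was Tgfb3, with a difference of 0.046 where the median gene was at 0.385. Next came Cdh11, a cadherin of mesenchymal cells, at 0.067. For Tgfb3 the most alike were Rcan1, an inhibitor of calcineurin, at 0.043 and then Ccn2. Tgfbi was most alike to Icam2, an adhesion molecule of endothelium and leukocytes (0.061), and Nckap1l, an actin regulator of blood cells (0.068). Tgfb1 was most alike to Tram2 (0.034) and Pole (0.037), and Tgfb2 to Ccdc92 (0.045) and E2f7 (0.050). Among the receptors, Tgfbr1 was most alike to Dock11 (0.020) and Fuca1 (0.023), Tgfbr2 to Osbpl5 (0.029) and Cdkn2c (0.029), and Tgfbr3 to Mpp7 (0.050) and Ecm1 (0.058). Smad7 was most alike to Slc30a9 (0.033) and Mrpl47 (0.039).

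Fibroblast markers had the same highest and lowest grafts as Ccn2 and Tgfb3. The log2 fold change was positive for 15 of 15 fibroblast markers, none of them in the pathway lists, at a median of 0.69. The markers include collagen genes (Col5a1, Col5a2, Col6a1 and Col6a2), so the list is not independent of the matrix genes among the targets. At an unadjusted edgeR p under 0.05, 13 were on the higher side (8.36% of all genes), and 0 were called by edgeR and 8 by DESeq2 (2.23% of all genes). Their summed level was 629 to 780 CPM in inhibition grafts and 366 to 528 CPM in control grafts, and none was at 0 in any graft. The mean log2 level of the fibroblast markers, less the control mean, was 0.94, 0.88 and 0.51 in the inhibition grafts and -0.39, 0.30 and 0.09 in the control grafts. On the same scale Ccn2 stood at 0.76, 0.57 and 0.55 in the inhibition grafts and -0.31, 0.20 and 0.12 in the control grafts, and Tgfb3 at 0.80, 0.60 and 0.45 in the inhibition grafts and -0.30, 0.19 and 0.11 in the control grafts. In both genes and in the marker list, inhibition graft 1 was the highest and control graft 1 the lowest. The mean levels of the skeletal muscle, pericyte and smooth muscle, and pigment cell lists shared both extremes. In the endothelial, macrophage and squamous epithelium lists control graft 1 was also the lowest, but inhibition graft 1 was not the highest.

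Summed endothelial markers (12 of 12 tested) were at 359 to 411 CPM in inhibition grafts and 198 to 335 CPM in control grafts, and pericyte and smooth muscle markers (10 of 10) at 505 to 581 CPM in inhibition and 286 to 413 CPM in control grafts. The mean log2 endothelial level, less the control mean, was 0.41, 0.34 and 0.51 in inhibition grafts 1, 2 and 3. It was -0.46, 0.22 and 0.24 in the control grafts. On the same scale pericyte and smooth muscle markers were at 0.44, 0.39 and 0.25 in inhibition grafts and -0.18, 0.04 and 0.14 in control grafts. Skeletal muscle markers were at 1.71, 1.57 and 0.77 in inhibition grafts and -0.48, 0.73 and -0.24 in control grafts. Which cells held the Tgfb3 transcripts was not tested. Skeletal muscle markers (19 of 20 tested) were at 2463 to 4378 CPM in inhibition grafts and 923 to 2091 CPM in control grafts. Macrophage markers (14 of 14) were at 389 to 459 CPM in inhibition and 234 to 409 CPM in control grafts, and squamous epithelium markers (14 of 15) at 1643 to 5137 CPM in inhibition and 1300 to 2889 CPM in control grafts, both overlapping between the groups. Of these 5 lists, Krt1 and Tnnc2 were at 0 in some graft.

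With the fibroblast level of each graft as a covariate in edgeR, the log2 fold change was 0.14 ± 0.16 for Ccn2, 0.066 ± 0.23 for Tgfb3 and -0.027 ± 0.29 for Tgfbi (standard errors), and with the skeletal muscle level 0.29 ± 0.19, 0.20 ± 0.24 and 0.074 ± 0.27. The fibroblast level itself did not overlap between the groups, so its part and that of the nerve inhibition cannot be told apart in these 6 grafts. Its markers include collagen genes, so this covariate also cannot be separated from a difference in matrix genes. For Tgfb1 the log2 fold change was 0.46 ± 0.15 with the fibroblast level and 0.39 ± 0.16 with the muscle level, neither past the threshold (edgeR adjusted p = 0.999 and 0.9998).

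**Figure D3:**
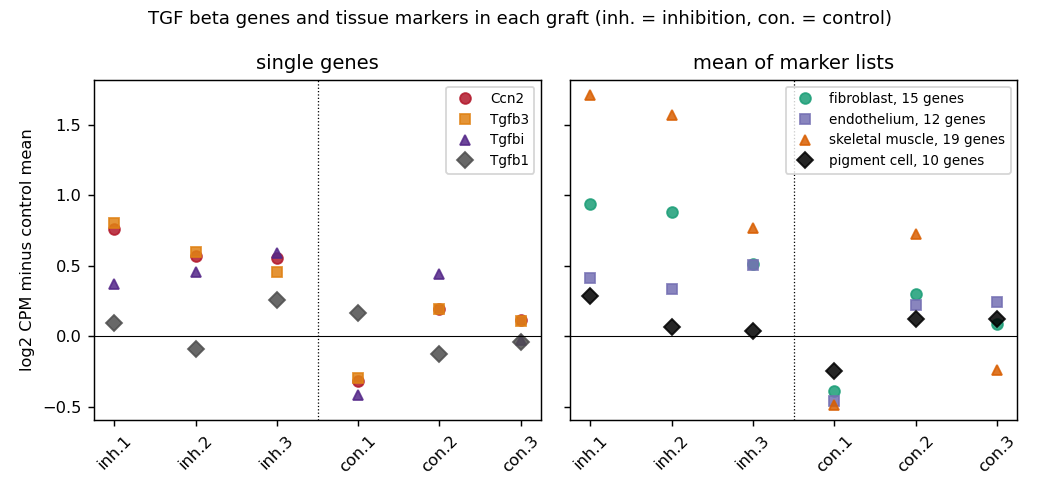
Log2 CPM less the mean of the controls (vertical axis) in each of the 3 inhibition and 3 control grafts, for Ccn2, Tgfb3, Tgfbi and Tgfb1 (left) and for the mean of 4 marker lists (right). Ccn2 and Tgfb3 nearly coincide in every graft and are lowest in control graft 1, as are all 4 marker lists. Tgfb1 is higher in control graft 1 (0.16) than in the other controls.

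**Figure D4:**
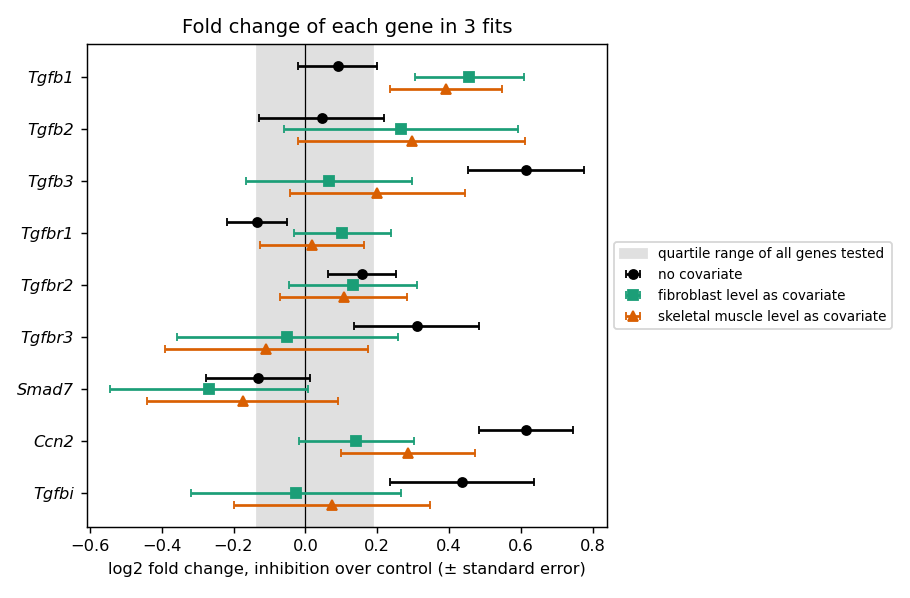
Log2 fold change of each gene, inhibition over control (horizontal axis, points with standard errors), in the fit with no covariate (black), with the fibroblast level (green) and with the skeletal muscle level (orange), over the quartile range of all genes tested (grey, -0.13 to 0.19). The black points of Ccn2, Tgfb3, Tgfbi and Tgfbr3 lie right of the grey band and the green points of the same genes lie inside it. The green points of Tgfb1 (0.46) and Tgfb2 (0.27) lie right of the band and that of Smad7 (-0.27) left of it, while their black points lie inside it.

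The rest of the pathway was read from 4 gene lists with 81 genes outside the 9, 5 of which stand in 2 lists. Of these, 77 were tested and 0 were called by edgeR, while an unadjusted p under 0.05 put 24 on the higher and 6 on the lower side (8.36% and 7% of all genes). DESeq2 called 10 of them, all higher (2.23% of all genes). In the targets list, the median log2 fold change was 0.43, positive in 30 of 36 tested genes. An unadjusted p under 0.05 put 17 on the higher and 3 on the lower side. DESeq2 called 7 targets, all of them higher (2.23% of all genes). Many genes of this list are matrix and contractile genes. The log2 fold change was also positive for 15 of 15 fibroblast, 19 of 19 skeletal muscle and 11 of 12 endothelial markers, and for 0 of 10 neutrophil markers. Which cells held the target transcripts was not tested. The median of the targets list was -0.020 with the fibroblast level as a covariate and 0.084 with the skeletal muscle level. Neither level overlapped between the groups, so their parts and that of the nerve inhibition cannot be told apart. Single genes lay away from these medians. Acta2 had a log2 fold change of 0.57 ± 0.19 with the fibroblast level and 0.45 ± 0.18 with the muscle level (standard errors, edgeR adjusted p = 0.999 and 0.9998), against 0.55 with no covariate. With the fibroblast level Itga11 (1.04 ± 0.80) and Itgb6 (0.54 ± 0.77) also lay above the median, and Ccn5 (-0.67 ± 0.30) lay below it.

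The target with the smallest p was Acta2, smooth muscle actin and a marker of myofibroblasts. It stood at 46.1 ± 2.66 CPM in inhibition grafts and 31.6 ± 3.55 CPM in control grafts (SD, n = 3 each; log2 fold change 0.55, edgeR adjusted p = 0.122, DESeq2 adjusted p = 0.00228). The collagen I genes followed, Col1a2 at 259 ± 32.5 CPM in inhibition and 159 ± 28.2 CPM in control grafts and Col1a1 at 230 ± 32.0 CPM in inhibition and 152 ± 22.8 CPM in control grafts (log2 fold changes 0.70 and 0.60, edgeR adjusted p = 0.162 and 0.166, DESeq2 adjusted p = 0.000155 and 0.0015). In all 3 genes, named for the smallest p of their list, the groups did not overlap (10.2% of all genes on the higher side). Id2, an inhibitor of helix-loop-helix factors better known as a BMP target, stood at 108 ± 13.9 CPM in inhibition grafts and 80.02 ± 9.95 CPM in control grafts (log2 fold change 0.43, edgeR adjusted p = 0.186, DESeq2 adjusted p = 0.0405). Cdkn2b, the cell cycle inhibitor p15, was at 0.842 ± 0.234 CPM in inhibition and 0.231 ± 0.165 CPM in control grafts (1.83, 0.216).

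Pmepa1 and Skil are targets that also feed back on the pathway. Pmepa1, a membrane protein that limits SMAD signalling, was at 29.5 ± 4.69 CPM in inhibition and 24.5 ± 4.49 CPM in control grafts (SD, n = 3 each; log2 fold change 0.27, edgeR adjusted p = 0.438), its groups overlapping. Skil, a SMAD co-repressor that the pathway induces as feedback, was at 45.6 ± 2.51 CPM in inhibition and 52.2 ± 4.11 CPM in control grafts (-0.19, 0.332), its inhibition values all below its control values.

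In the list on storage and release of the ligand (latency and activation), the median log2 fold change was 0.066, positive in 10 of 19. An unadjusted edgeR p under 0.05 put 6 on the higher and 2 on the lower side (8.36% and 7% of all genes). By adjusted p, edgeR called 0 and DESeq2 called 3, Ltbp2, Fbn1 and Ltbp4, all higher (2.23% of all genes). Of these, Ltbp2 also stands in the targets list. Ltbp2, a latent TGF beta binding protein family member of elastic fibres, stood at 7.83 ± 0.864 CPM in inhibition grafts and 4.03 ± 1.61 CPM in control grafts (SD, n = 3 each; log2 fold change 0.96, edgeR adjusted p = 0.202, DESeq2 adjusted p = 0.0497). Fbn1, the fibrillin to which the latent complexes attach, was at 144 ± 34.96 CPM in inhibition and 75.8 ± 18.7 CPM in control grafts (log2 fold change 0.92, edgeR adjusted p = 0.221, DESeq2 adjusted p = 0.000467). Itgb6, the epithelial integrin chain that frees Tgfb1 and Tgfb3, was at 2.33 ± 1.19 CPM in inhibition and 1.05 ± 0.0493 CPM in control grafts (1.15, 0.239). In these 3 genes, named for the smallest p of their list, the groups did not overlap (10.2% of all genes on the higher side).

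The median log2 fold change of the co-receptors and antagonists was 0.26, positive in 9 of 11. An unadjusted edgeR p under 0.05 put 3 on the higher side (8.36% of all genes). They were Bgn and Fmod, small matrix proteoglycans that bind TGF beta, and Bambi, a pseudoreceptor without a kinase. By adjusted p, edgeR called 0 of the 11 and DESeq2 called 1, Bgn, on the higher side (2.23% of all genes). Bgn stood at 260 ± 26.7 CPM in inhibition grafts and 150 ± 45.4 CPM in control grafts (log2 fold change 0.80, edgeR adjusted p = 0.228, DESeq2 adjusted p = 0.00187). Fmod stood at 0.992 ± 0.131 CPM in inhibition and 0.366 ± 0.204 CPM in control grafts (1.40, 0.232), and Bambi at 19.1 ± 1.33 CPM in inhibition and 16.01 ± 0.582 CPM in control grafts (SD, n = 3 each; 0.26, 0.312).

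The SMADs and their regulators had a median inside the quartile range of all genes (-0.13 to 0.19). Their median log2 fold change was -0.067, positive in 5 of 16 tested. An unadjusted edgeR p under 0.05 put 0 on the higher and 1 on the lower side (8.36% and 7% of all genes). By adjusted p, edgeR called 0 (0.0383% of all genes) and DESeq2 called 0 (2.23% of all genes higher and 1.23% lower). The groups did not overlap in 1 gene on the higher side and 4 on the lower side (10.2% and 11% of all genes). Smad3, the transducer of most matrix targets, stood at 43.7 ± 1.33 CPM in inhibition grafts and 41.8 ± 2.08 CPM in control grafts (SD, n = 3 each; log2 fold change 0.06, standard error 0.08, edgeR adjusted p = 0.727). The gene with the smallest p was Ppm1a, a phosphatase reported to act on SMADs, at 102 ± 3.83 CPM in inhibition and 119 ± 7.86 CPM in control grafts (-0.22, 0.228). Smurf1, a ubiquitin ligase that Smad7 brings to the receptor, was at 83.3 ± 7.22 CPM in inhibition and 93.9 ± 10.6 CPM in control grafts (-0.17, 0.430), with overlapping groups.

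**Figure D5:**
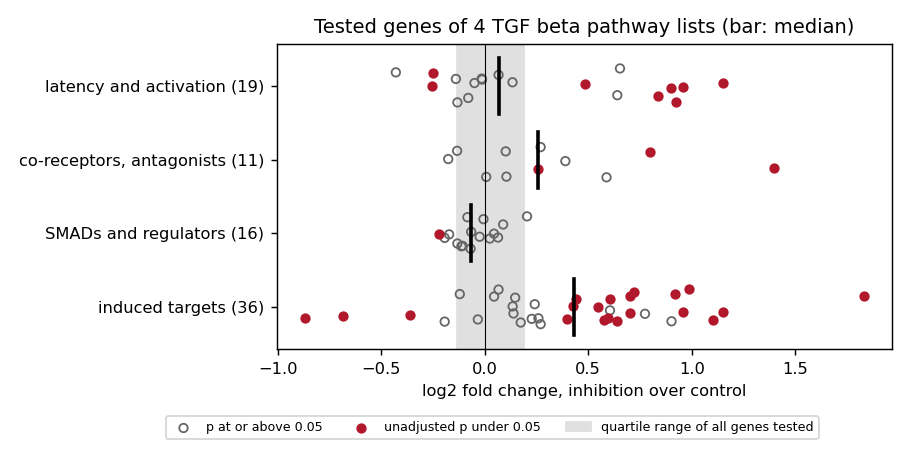
Log2 fold change, inhibition over control (horizontal axis), of the tested genes of 4 TGF beta pathway lists (rows, number tested in parentheses), with filled points for an unadjusted p under 0.05, black bars for the median and grey for the quartile range of all genes tested. The bar of the induced targets (0.43) lies right of the grey range, and that of the SMADs and regulators (-0.067) inside it.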

How the data were processed

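The authors deposited raw read counts per Ensembl gene for 6 libraries, whole numbers with no normalization. Per the submitters' processing notes, HISAT2 2.0 and mm10 were used. What program did the counting, with which annotation release and strand setting, is not given in the sources used here. Columns were matched to samples by name (the inhibition columns spoke of denervation), and 0 columns of values were left unused. Symbols were found for 55141 of 55487 IDs. Positions and lengths came from GENCODE M21 on GRCm38.

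Genes were kept with filterByExpr (count minimum 10, total minimum 15) and tested with edgeR 4.0.16 in R 4.3.3 (TMM factors, robust quasi-likelihood fit, no covariate, Benjamini-Hochberg over 15666 genes, called under 0.05). Standard errors were the size of the log2 fold change over the root of the F statistic. The fit was checked on simulated counts. Log2 CPM had a prior count of 2. Alternatives used limma 3.58.1, DESeq2 1.42.0 and other settings given in the closing section. Ratios used counts with an exact permutation test (scipy 1.17.1).

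The members and gene lists were chosen with earlier results of these data known. Named beside the 9 members were the 3 tested genes of smallest p in each pathway list (6 among the targets, of which Ltbp2 stands with the storage genes), Skil, Pmepa1 and Smad3, and the 2 genes most alike to each member (mean of at least 5 CPM, no predicted or clone name). A further gene that the rule names is not reported here. Sets of pathway genes were described by counts and medians, with no set test.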

Additional observations from a re-analysis of the deposited data

How the results depend on the processing

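Against 6 genes called, edgeR called 1187 of the 28841 genes tested with no filter on low counts. It called 14 with the replicate block, 33 at an adjusted p under 0.1, and between 0 and 217 when single grafts were left out. It called 0 without inhibition graft 1, inhibition graft 2 or control graft 3 (1425, 1705 and 2188 at an unadjusted p under 0.05), and 217, 11 and 24 without inhibition graft 3, control graft 1 and control graft 2. DESeq2 called 541 and limma-voom 0 (2329 at an unadjusted p under 0.05). With the muscle or fibroblast level as a covariate edgeR called 0 (474 and 623 at an unadjusted p under 0.05). Of the 9 members, 3 were called with no filter (Ccn2, Tgfb3 and Tgfbi) and 2 by DESeq2 (Ccn2 and Tgfb3), and 0 under every other alternative, among them each graft left out, with the replicate block and limma-voom. Of the 81 pathway genes, 16 were called with no filter, 10 by DESeq2 and between 0 and 3 with single grafts left out. The 3, without inhibition graft 3, were Col1a1, Col1a2 and Cthrc1.

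Over 144 values of the members under the alternatives, 8 turned sign, none of them called. Tgfb1 ran from -0.015 to 0.17 and Tgfb2 from -0.12 to 0.13 (log2 fold change) with single grafts left out, turning without inhibition graft 3 and without inhibition graft 1 or control graft 2. Tgfbr1 turned to 0.019 with the muscle level and 0.10 with the fibroblast level, Tgfbr3 to -0.11 and -0.050, and Tgfbi to -0.027 with the fibroblast level. The log2 ratio of Tgfb2 to Tgfb1 differed by -0.13 to 0.13 with single grafts left out. The other 5 ratios kept their sign, as all 6 did with 0.5 counts added, but Tgfb3 to Tgfb1 was 0.30 without control graft 1, Tgfbr3 to Tgfbr2 0.0097 without inhibition graft 2 (range 0.0097 to 0.24) and Tgfbi to Ccn2 -0.033 without control graft 2 (range -0.25 to -0.033). The share of Tgfb2 was 6.12% in inhibition grafts and 6.51% in control grafts per length of the longest coding transcript, an alternative chosen after seeing the data, as was applying the alternatives to the pathway lists. The cause of these changes was not tested. Deviations of same-numbered grafts from their group means correlated at -0.18, 0.33 and 0.087 across genes, so the numbers were not taken to pair the grafts, and inhibition grafts 1 and 3 correlated best with another number (0.14 with control graft 2 and 0.295 with control graft 1). Under the block Ccn2 had a log2 fold change of 0.62 (edgeR adjusted p = 0.153).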

Other observations

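Markers of other cells known to carry TGF beta were read in the same grafts. Of 10 markers of T cells and regulatory T cells, 2 passed the count filter, and all 10 summed to 6.96 to 9.07 CPM in inhibition grafts and 5.18 to 8.46 CPM in control grafts. Foxp3, the factor of regulatory T cells, stood at 0.701, 0.615 and 0.810 CPM in the inhibition grafts and 0.966, 0.130 and 0.339 CPM in the control grafts, overlapping between the groups. Platelet markers (3 of 6 tested) summed to 9.48 to 12.2 CPM in inhibition grafts and 11.3 to 17.5 CPM in control grafts. Neutrophil markers (10 of 11 tested) summed to 9.74 to 33.8 CPM in inhibition grafts and 41.1 to 105 CPM in control grafts, with no overlap between the groups. The part of these cells in the levels of Tgfb1 was not tested.

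In the targets list 3 genes (Tagln, Cnn1 and Comp) were under the count filter and were not tested. Tagln, the actin-binding protein SM22 and a widely used TGF beta target, had 3, 3 and 4 counts in the inhibition grafts and 3, 3 and 0 counts in the control grafts, while Acta2 of the same contractile cells stood at 27.5 CPM or more in every graft. Exons of the antisense gene Gm48529 cover 62.4% of the Tagln exon bases and those of Pcsk7 5.43%, both on the opposite strand, and whether the authors' counting left out reads in such overlaps was not tested. The 3 targets on the lower side at an unadjusted edgeR p under 0.05 were Adam12 (log2 fold change -0.68), Cdkn1a (-0.87) and Junb (-0.36), named after their values were seen (adjusted p = 0.281, 0.320 and 0.259). Their sign turned with the fibroblast level as a covariate (0.25, 0.38 and 0.11) and with the skeletal muscle level (0.065, 0.17 and 0.022). Cdkn1a held 392 CPM in control graft 1, against 186 and 242 CPM in control grafts 2 and 3.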
